A study of Rattus norvegicus with 12 samples.

Results

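The testes of rats taken after 21 days of restraint stress plus ice-water swimming (RS+IS) were compared with those taken after 3 days, to ask which germ cell genes separate chronic from short stress. The comparison used 6 of the 12 RNA sequencing libraries of the series, 3 titled RS+IS_21D and 3 titled RS+IS_3D. It was read through 578 germ cell markers, the distinct rat genes in the study's supplementary sheet of homologs of genes marked in single-cell data of mouse testis: 12 spermatogonia (SPG) markers, 181 spermatocyte (SPC) markers and 385 spermatid markers. Each marker was found in the deposited transcript tables by its counts, and all 578 of 578 were matched to 1 set of transcripts. All rats were male Sprague Dawley (SD) rats given as 8 weeks old in the labels. Stressed rats were held on their backs for hours on each day and then swam in ice water. Controls were not restrained and had no access to feed or drink while the stressed rats were being treated, and 3 control libraries and 3 libraries of 14 days of RS+IS were used only as a second, separate comparison. The 21-day rats had lived through 18 more days of the experiment than the 3-day rats, so the length of stress cannot be told apart from the time that passed. Nothing in the labels says which time point the control libraries belong to, or that the 3 samples of a group came from separate cages or days, so p-values measure the spread between these samples.

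In the seminiferous tubule, spermatogonia divide by mitosis, enter meiosis as spermatocytes, and leave it as haploid round spermatids that elongate into sperm. Entry into meiosis needs Stra8, the pairing of chromosomes needs the synaptonemal complex with Sycp3, and the packing of the spermatid nucleus replaces histones first with transition proteins (Tnp1, Tnp2) and then with protamines. Several generations of these cells lie side by side in every tubule, so RNA of whole testis mixes all of them, and fewer cells of a type and less RNA per cell cannot be told apart in it.

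The 6 libraries held 24541844 to 29404590 estimated counts each. Levels are given as CPM, counts scaled to a common library size with edgeR's TMM library factors, and are compared only within a gene; levels between genes are given as TPM, transcript abundances that account for length. Over all 31715 transcripts of the tables, counts of the marker transcripts were summed per gene, which left 31515 features, of which 21203 passed edgeR's filter on low counts. All 578 markers passed it. Markers of Sertoli, Leydig and other somatic cells were not examined here, since the tables name transcripts by identifier only.

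Spermatid markers stood higher and SPG and SPC markers lower after 21 days than after 3 days. Here "rose", "fell", "higher" and "lower" in counts mean an unadjusted p under 0.05 in edgeR's quasi-likelihood test, the threshold the study set for its markers. Of the 385 spermatid markers 177 rose (46.0%) and 2 fell. Of the 181 SPC markers 44 fell (24.3%) and 1 rose, and of the 12 SPG markers 7 fell (58.3%) and 0 rose. Over all features tested, 8.23% rose and 8.32% fell by the same threshold. The median log2 fold change was 0.16 for the spermatid markers, -0.09 for the SPC markers and -0.26 for the SPG markers, against -0.01 for all features. After Benjamini-Hochberg adjustment over all features, 1 feature passed edgeR's test at an adjusted p under 0.05 (0.00472% of those tested), and it was no marker. Of the markers, 231 passed before adjustment. The same adjusted threshold in DESeq2 was passed by 777 of the 27750 features it was given, 120 of them markers. The changes were small: no marker moved by 2-fold or more, and the markers that changed ran from -0.83 to 0.73 on the log2 scale.

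**Figure D1:**
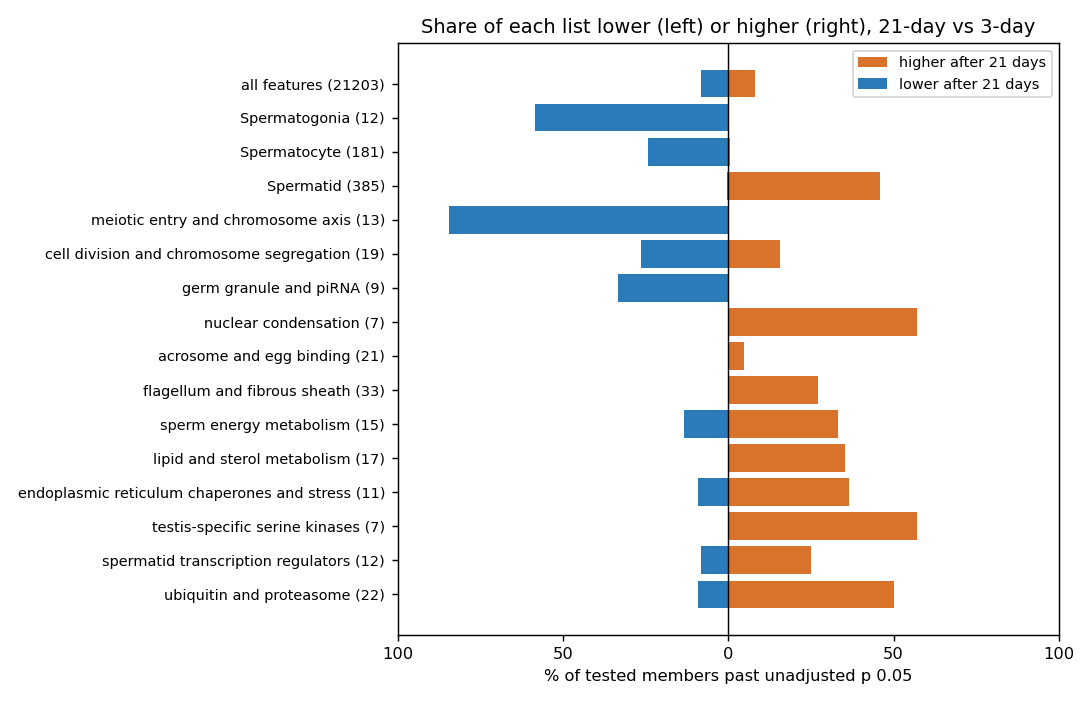
Share of tested members, in percent, that passed an unadjusted p of 0.05 in the 21-day versus 3-day comparison, lower to the left in blue and higher to the right in orange, for all 21203 features, the 3 marker classes and 12 function lists (number of members in parentheses). The spermatid class reaches to the right (46.0%) and the SPG, SPC and meiotic entry bars to the left, all features are nearly even, and the list of the acrosome and egg binding has a smaller share higher (4.76%) than all features (8.23%).

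Whether all 3 libraries of a group lay above or below all 3 of the other was counted as well. Of the spermatid markers, 219 lay higher in every 21-day library than in every 3-day library (56.9%), where 12.8% of all features did. For the lower direction, 7 SPG and 29 SPC markers had groups that did not overlap (58.3% and 16.0%), against 10.4% of all features. Together the spermatid markers made up 9.12% to 9.69% of the estimated counts in the 3-day libraries and 10.4% to 11.4% in the 21-day libraries. The SPC markers held 4.98% to 5.07% in the 3-day and 4.58% to 4.76% in the 21-day libraries, and the SPG markers 0.0903% to 0.0939% and 0.0769% to 0.0819%. None of these 3 pairs of ranges overlapped; with 3 against 3 samples an exact permutation test cannot go below p = 0.1. In the control libraries the shares were 9.02% to 10.2% for spermatid, 4.71% to 5.08% for SPC and 0.0874% to 0.111% for SPG markers, which spanned the 3-day range in each class.

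The count of SPC markers that fell depended on single libraries and on how libraries were scaled. It was 8 without the 21-day replicate 1, 20 without the 3-day replicate 3, 23 without the 3-day replicate 1, 24 without the 21-day replicate 3 and 75 without the 21-day replicate 2. Without the 21-day replicate 1 the share of SPC markers that fell (4.42%) was below that of all features in the same fit (5.70%); in the other 4 of these fits it was above, at the lowest with 11.1% against 5.39%. Scaling by TMM factors from the markers alone shifted all log2 fold changes by -0.09, and then 132 spermatid markers rose and 23 fell, 120 SPC markers fell and 9 SPG markers fell. Markers that changed were 77.1% higher in the main test and 46.5% with that scaling, and 93.6% without the 21-day replicate 1 and 62.2% without the 21-day replicate 2. In each of these, more spermatid markers rose than fell, and more SPC and SPG markers fell than rose.

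After Stra8, Ccne2 and Tex19.1 had the lowest log2 fold changes of the 12 SPG markers. Ccne2, which encodes cyclin E2 of the G1 to S transition, stood at 68.5, 70.5 and 76.6 CPM in the 3-day and 49.4, 53.4 and 55.3 CPM in the 21-day libraries. No 21-day value reached the lowest 3-day value, and the log2 fold change was -0.48 (SE 0.0691; adjusted p = 0.131). Control libraries lay at 66.7 to 68.0 CPM and 14-day libraries at 52.0 to 60.7 CPM. Tex19.1, a germ cell gene known for restraining retrotransposons, stood at 17.9, 16.1 and 16.9 CPM after 3 days and 11.9, 13.2 and 13.9 CPM after 21 days. These groups were apart as well, with a log2 fold change of -0.41 (SE 0.0975; adjusted p = 0.175).

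Stra8, the gene that gates the entry into meiosis, had the largest fall of all markers as deposited, but its counts in the 21-day libraries are uncertain. It stood at 11.3, 9.59 and 9.67 CPM in the 3-day and 5.96, 5.55 and 5.99 CPM in the 21-day libraries, groups that did not overlap (log2 fold change -0.83, SE 0.125; adjusted p = 0.142). In each library a transcript's count should follow from its TPM and effective length, and 292966 values with a count above 1 and a TPM above 0 were compared over the 12 libraries. All did so within 0.1% except 9 values of 2 transcripts: that of Stra8 in all 3 of the 14-day and all 3 of the 21-day libraries, and that of Piwil1 in all 14-day libraries. In the 21-day libraries the Stra8 counts were 147, 149 and 151 as deposited and 146, 155 and 153 by its TPM. The TPM columns of these libraries also summed to less than the full scale, by 0.0155, 3.05 and 3.97 TPM. With Stra8 counts implied by TPM the log2 fold change was -0.81, and with the missing TPM assigned to Stra8 (counts of 146, 217 and 222) it was -0.45; both passed the unadjusted threshold. The cause of the difference was not tested. Without Stra8, 6 of the other 11 SPG markers fell and their median log2 fold change was -0.24.

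The other SPG markers that fell did so by less. Slc25a31, a mitochondrial ADP/ATP carrier of germ cells, went from 77.0 to 82.5 CPM after 3 days to 65.9 to 69.9 CPM after 21 days (log2 fold change -0.24, SE 0.0581; adjusted p = 0.176). Hspa5, the main Hsp70 chaperone of the endoplasmic reticulum, went from 593 to 601 CPM to 523 to 558 CPM (log2 fold change -0.16; adjusted p = 0.199). Nucks1, a chromatin protein, had 22.7 to 24.5 CPM and then 16.5 to 21.4 CPM (log2 fold change -0.29; adjusted p = 0.28), and Atad5, which unloads the replication clamp, had 27.5 to 32.2 CPM and then 25.6 to 27.2 CPM (log2 fold change -0.20; adjusted p = 0.293). The groups of these 4 genes did not overlap, though Nucks1 and Atad5 did not pass under DESeq2. For Nucks1 the same held with total count alone (-0.30) and with all 12 libraries in one fit (-0.26). For Atad5 it held with RLE size factors, no filter, at least 10 counts in every library, a replicate block and limma voom (-0.20 to -0.17). Nucks1 did not pass without the 3-day replicates 1, 2 or 3 (-0.25, -0.30 and -0.31) or the 21-day replicate 2 (-0.17), Atad5 with any library but the 3-day replicate 2 left out (-0.21 to -0.14), and Hspa5 without the 21-day replicate 1 (-0.14) or with all 12 libraries in one fit (-0.13).

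Values of 5 SPG markers overlapped between the groups and did not pass. The log2 fold change was -0.28 for Cited1, -0.27 for Elavl2, -0.10 for Rac1, -0.06 for Cdk2ap2 and 0.25 for Ccnd1, which encodes cyclin D1. The positive value of Ccnd1 came from the 21-day replicate 1 at 16.6 CPM, beside 8.01 and 9.80 CPM in the other two and 8.28 to 10.4 CPM after 3 days. Without that library it was -0.08.

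**Figure D2:**
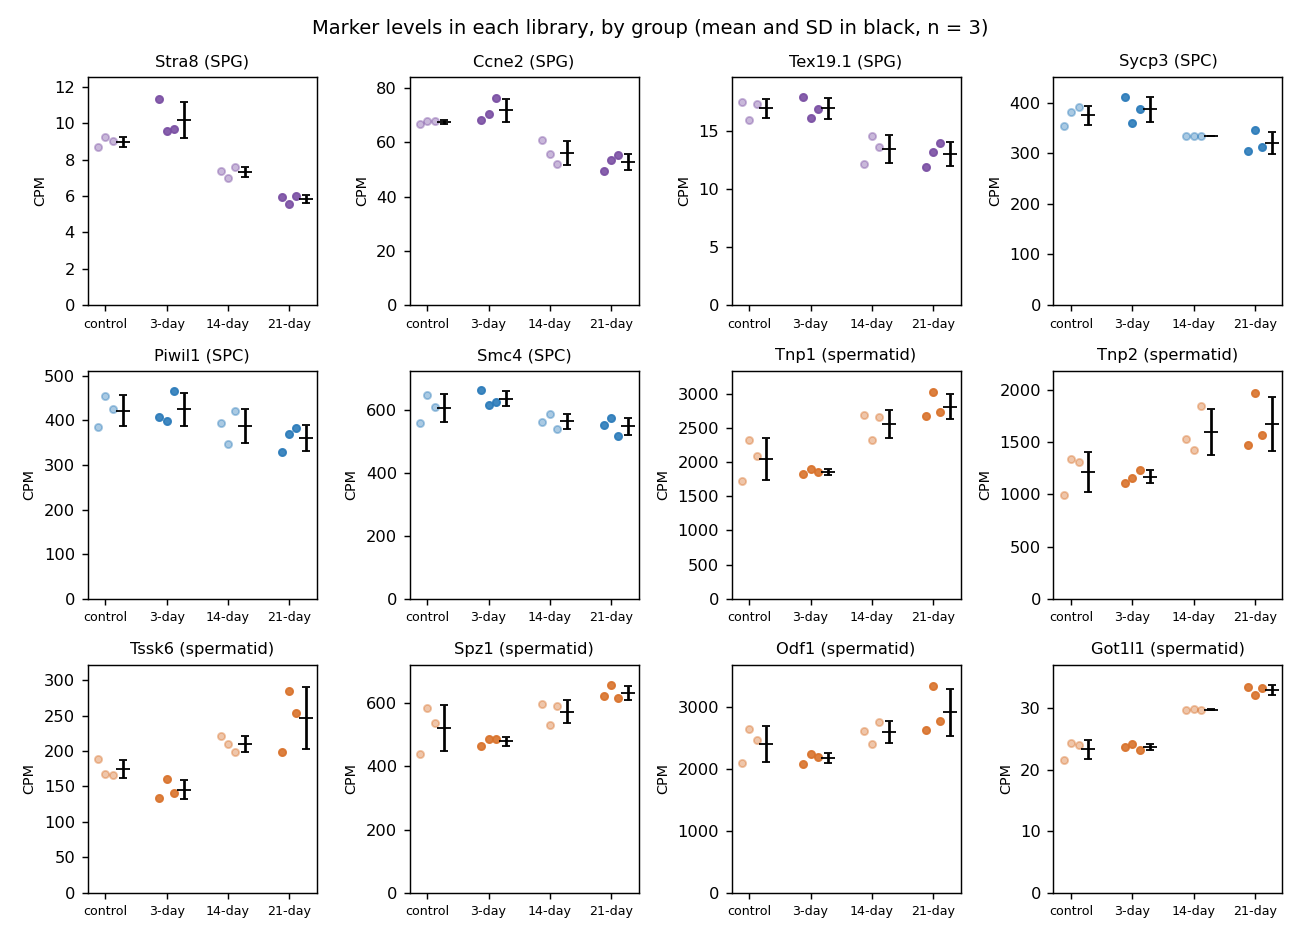
Levels in CPM, on linear axes that start at 0, of 3 SPG, 3 SPC and 6 spermatid markers in the 12 libraries; each point is 1 library, and the black bar and whiskers are the mean and SD of 3. The 21-day points of Stra8, Ccne2 and Tex19.1 lie below and those of Tnp1, Tnp2, Tssk6, Spz1, Odf1 and Got1l1 above every 3-day point. Control and 14-day libraries are drawn paler.

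Sycp3, a structural protein of the synaptonemal complex, stood at 412, 361 and 388 CPM after 3 days and 306, 345 and 312 CPM after 21 days, without overlap (log2 fold change -0.30, SE 0.0723; adjusted p = 0.176).

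Over the list of 13 markers of meiotic entry and the chromosome axis, 11 fell (84.6%) and 0 rose, with a median log2 fold change of -0.23. Of all features 8.32% fell, of the SPC markers 24.3% and of the SPG markers 58.3%. The list includes the SPG genes Stra8, Ccne2 and Tex19.1 described above, so their falls are counted again here, with the doubt on the counts of Stra8. Others that fell were Sycp2 (-0.14), the partner of Sycp3 in the axis, Shcbp1l (-0.21), a spindle protein of meiosis, Spdya (-0.15), an activator of Cdk2, the chaperone Hspa2 (-0.15), the Cdk subunit Cks2 (-0.23) and Syce2 (-0.36), a central element protein that the table lists as a spermatid marker. Ccna1 and Syce1 did not pass, with 0.02 and -0.01. For Syce2 (adjusted p = 0.301) the groups overlapped, as they did for Hspa2.

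Piwil1, the Piwi protein that binds piRNAs in pachytene spermatocytes and round spermatids, stood at 408, 399 and 466 CPM after 3 days and 328, 370 and 383 CPM after 21 days. The groups did not overlap (log2 fold change -0.26, SE 0.0814; adjusted p = 0.211), but the result did not pass without the 21-day replicate 1 (-0.17) or without the 3-day replicate 3 (-0.20). Its counts in these 6 libraries followed from its TPM. In the list of 9 germ granule and piRNA markers, Tex19.1, Piwil1 and the poly(A)-binding gene Pabpc6 fell (33.3%) and 0 rose, where 8.32% of all features fell. Tex19.1 is counted in the list of meiotic entry too. By edgeR, Pabpc6 had a log2 fold change of -0.13 (adjusted p = 0.298) and Ddx4, the vasa helicase, of -0.11 (adjusted p = 0.377). With single libraries left out, Pabpc6 passed only without the 21-day replicate 2; without the others it was at -0.15 to -0.09. It did not pass either with RLE size factors, TMM from features outside the marker table, no filter, at least 10 counts in every library, all 12 libraries in one fit, a replicate block or DESeq2 (-0.13 to -0.10).

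Of the SPC markers with non-overlapping groups and a mean of at least 5 CPM, Coprs, a partner of the arginine methyltransferase Prmt5, had the lowest log2 fold change. It stood at 25.2, 25.2 and 21.6 CPM and then 16.9, 13.97 and 19.7 CPM (-0.54, SE 0.14; adjusted p = 0.18). Next came the ubiquitin-conjugating enzyme Ube2t (-0.34), Cklf (-0.34), the testis-specific proteasome subunit Psma8 (-0.31), Ankrd54 (-0.31) and the tautomerase Ddt (-0.28). Psma8 went from 107 to 117 CPM to 84.5 to 99.5 CPM (adjusted p = 0.172). Without the 21-day replicate 1, Cklf was at -0.21, Ankrd54 at -0.28 and Ddt at -0.17, and none of the 3 passed. The same held for Cklf (-0.29) and Ddt (-0.23) without the 3-day replicate 1, and for Ankrd54 without the 3-day replicate 3 (-0.19) or the 21-day replicate 2 (-0.25), or with all 12 libraries in one fit (-0.28). The 44 SPC markers that fell ranged from -0.56 to -0.12, with a median of -0.22.

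The single SPC marker that rose was Mdh1b, a gene related to malate dehydrogenase. It stood at 89.5, 102 and 123 CPM after 3 days and 125, 142 and 135 CPM after 21 days (log2 fold change 0.33, SE 0.112; adjusted p = 0.238). It no longer passed without the 3-day replicate 1 (0.23), the 3-day replicate 2 (0.30), the 21-day replicate 2 (0.30) or the 21-day replicate 3 (0.32), and after scaling by the markers alone (0.24). Control libraries held 102 to 144 CPM of it.

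Markers of cell division moved both ways. Of 19, 5 fell (26.3%) and 3 rose (15.8%), where 8.32% of all features fell and 8.23% rose. Those that fell are SPC or SPG markers: Smc4 of condensin (-0.24; 616 to 662 CPM and then 517 to 572 CPM), the midzone protein Prc1 (-0.17), the kinase Pbk (-0.30), Cdc20, an activator of the anaphase-promoting complex (-0.24), and Atad5. Those that rose are spermatid markers: the microtubule depolymerase Kif2c (0.28), its relative Kif2b (0.15) and the spindle protein Knstrn (0.34).

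Of the 7 markers of nuclear condensation, 4 rose (57.1%) and 0 fell, where 46.0% of all spermatid markers and 8.23% of all features rose. Whether so short a list differs from the spermatid class was not tested. Tnp1, transition protein 1, stood at 1818, 1899 and 1847 CPM after 3 days and 2678, 3019 and 2732 CPM after 21 days. Every 21-day library was above every 3-day library, a 1.49-fold difference (log2 fold change 0.57, SE 0.0581), and its adjusted p of 0.0692 (edgeR, Benjamini-Hochberg over all features) was the smallest of all markers. Control libraries lay at 1716 to 2320 CPM and 14-day libraries at 2321 to 2681 CPM. Per length it stood at 17656 ± 677 TPM (SD, n = 3) after 3 days and 24544 ± 358 TPM (SD, n = 3) after 21 days.

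Tnp2, transition protein 2, stood at 1113, 1160 and 1233 CPM after 3 days and 1478, 1972 and 1571 CPM after 21 days (log2 fold change 0.49, SE 0.107; adjusted p = 0.167). The groups did not overlap, and the 21-day replicate 2 was the highest library, as it was for Tnp1. Prm3, protamine 3, had 165 to 201 CPM and then 226 to 270 CPM (0.39; adjusted p = 0.171), and Hmgb4, an HMG box protein of germ cells, had 480 to 507 CPM and then 571 to 663 CPM (0.26; adjusted p = 0.176). Chd5 (0.07), Banf2 (0.04) and the spermatid linker histone Hils1 (0.01; 389 to 411 CPM and then 367 to 450 CPM) did not pass.

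The upstream sequences of Tnp1 and Piwil1, 1 marker that rose and 1 that fell, are shown because each holds a motif of a factor known from its germ cell stage: the cAMP response element (CRE) read by Crem in spermatids, and the MYB motif read by Mybl1 (A-MYB) in pachytene spermatocytes. Both are the 250 bases before the gene's start, from RefSeq on GRCr8, read 5′ to 3′ on the minus strand, with the motif in capitals. Tnp1 lies at chr9:82044279-82044528 and Piwil1 at chr12:33606584-33606833.
Tnp1: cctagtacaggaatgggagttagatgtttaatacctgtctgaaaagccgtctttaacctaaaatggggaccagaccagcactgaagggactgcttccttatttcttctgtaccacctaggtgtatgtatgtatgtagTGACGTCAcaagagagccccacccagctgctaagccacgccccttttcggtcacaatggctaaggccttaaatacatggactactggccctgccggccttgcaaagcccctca
Piwil1: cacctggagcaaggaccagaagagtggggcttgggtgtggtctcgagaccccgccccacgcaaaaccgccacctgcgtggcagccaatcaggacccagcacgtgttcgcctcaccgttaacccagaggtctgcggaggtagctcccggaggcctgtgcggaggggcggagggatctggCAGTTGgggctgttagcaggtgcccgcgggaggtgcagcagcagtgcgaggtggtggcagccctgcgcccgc
The CRE, TGACGTCA, begins 113 bases before the start of Tnp1. The MYB motif, CAACTG, lies 72 bases before the start of Piwil1 on the opposite strand, so that it reads CAGTTG in the line above. Promoter windows of 300 bases (250 before and 50 after the start) were found by symbol, or else by gene identifier, for 484 of the 578 markers. They were searched on both strands. The CRE was in 5 of 146 promoters of spermatid markers that rose (3.42%), in 10 of 175 of those that did not pass (5.71%), in 0 of 38 of SPC markers that fell, and in 1.83% of all 33469 promoters of the table. The MYB motif was in 7 of 38 promoters of SPC markers that fell (18.4%), in 33 of 114 of SPC markers that did not pass (28.9%), in 23 of 146 of spermatid markers that rose (15.8%), and in 13.9% of all promoters. Among SPC markers the MYB motif, and among spermatid markers the CRE, was held by a smaller share of the markers that changed than of those that did not pass; these shares were not tested.

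Of the 7 markers of the testis-specific serine kinase list, 4 rose (57.1%) and 0 fell, where 46.0% of all spermatid markers and 8.23% of all features rose. A difference from the spermatid class was not tested here either. Tssk6, a kinase needed for sperm chromatin and fertility, had the largest rise of all markers, from 134, 160 and 141 CPM to 199, 285 and 254 CPM (log2 fold change 0.73, SE 0.132; adjusted p = 0.159). The lowest 21-day library was above the highest 3-day library, and the ratio was 1.66. Tssk3 (0.31), Tssk4 (0.18) and the kinase substrate Tsks (0.23) also rose, and Tssk2 had 0.17 with adjusted p = 0.31.

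Of 33 markers of the flagellum and fibrous sheath, 9 rose (27.3%) and 0 fell, with a median log2 fold change of 0.09. Over all spermatid markers 46.0% rose, with a median of 0.16. Odf1, a main protein of the outer dense fibres, stood at 2082, 2247 and 2202 CPM and then 2635, 3349 and 2772 CPM (0.40, SE 0.0907; adjusted p = 0.17). Akap4, which makes up most of the fibrous sheath, stood at 1602, 1777 and 1721 CPM and then 2082, 2410 and 2098 CPM (0.34, SE 0.0712; adjusted p = 0.163). Spata18, a mitochondrial quality control gene counted here with the midpiece, went from 868 to 982 CPM to 1244 to 1551 CPM (0.55; adjusted p = 0.158). None of these 3 overlapped between groups. The list also holds genes that are not parts of the flagellum. Its members Spem1 (0.38), Fscb (0.25), Ccdc63 (0.21), Ccin (0.20), Cabyr (0.19) and Cylc1 (0.15) rose as well. Markers of the axoneme such as Tekt1 (-0.09), Tekt2 (0.06), Tekt4 (-0.08) and Dnajb13 (-0.02) did not pass.

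Lipid genes rose in 6 of 17 markers (35.3%) and fell in 0, where 46.0% of all spermatid markers rose. Lipe, hormone-sensitive lipase, stood at 206, 232 and 237 CPM after 3 days and 305, 334 and 297 CPM after 21 days (0.45, SE 0.0694; adjusted p = 0.155). Acsl1, which activates long-chain fatty acids, stood at 558, 631 and 599 CPM and then 819, 839 and 733 CPM (0.39, SE 0.0693; adjusted p = 0.158). Both had groups apart. Lpin1 (0.30), Agpat2 (0.29), the sterol demethylase Cyp51 (0.22) and Dgat2 (0.17) also rose.

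In sperm energy metabolism 5 of 15 rose (33.3%) and 2 fell (13.3%), where 46.0% of all spermatid markers rose. Got1l1, a testis relative of aspartate aminotransferase, stood at 23.6, 24.2 and 23.3 CPM after 3 days and 33.5, 32.1 and 33.2 CPM after 21 days (0.45, SE 0.0645; adjusted p = 0.131). Gapdhs, the sperm form of a glycolytic dehydrogenase, went from 1055 to 1168 CPM to 1290 to 1597 CPM (0.31; adjusted p = 0.182), and Gpd2 (0.30) and hexokinase Hk1 (0.19) rose beside the SPC marker Mdh1b. The 2 that fell were the SPG marker Slc25a31 and the SPC marker Cox7b2 (-0.22).

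Among 11 markers of endoplasmic reticulum chaperones and stress, 4 spermatid markers rose (36.4% of the list) and the SPG marker Hspa5 fell. By comparison, 46.0% of all spermatid markers and 8.23% of all features rose, for this and the following lists. Herpud1, a component of the degradation pathway of that organelle, had 128 to 136 CPM and then 160 to 176 CPM (0.31; adjusted p = 0.158), with Dnajb8 at 0.29, Herpud2 at 0.28 and the testis calreticulin Calr3 at 0.26. In the ubiquitin and proteasome list 11 of 22 rose (50%), near the share of the spermatid class. Ubqlnl (0.36), Ube2g2 (0.30) and Otub2 (0.26) rose by most, and the SPC markers Psma8 and Ube2t fell. Of 12 transcription regulators 3 rose, with Spz1, a basic helix-loop-helix factor of the testis, at 463, 487 and 486 CPM and then 623, 657 and 617 CPM (0.37, SE 0.0469; adjusted p = 0.11), which did not overlap. Sox5 (0.31) and Fhl5 (0.22), a coactivator of Crem, rose, Pbx4 (-0.21) fell, and Crem itself had -0.07 (adjusted p = 0.579). Fhl5 did not pass without the 3-day replicate 2 or 3 (0.22 in both).

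Of 21 markers of the acrosome and egg binding, 1 rose (4.76%) and 0 fell, where 46.0% of all spermatid markers and 8.23% of all features rose. The 1 that rose is a gene of the junction of head and tail. Pmfbp1, which joins the sperm head and tail, went from 583 to 659 CPM to 723 to 802 CPM (0.24; adjusted p = 0.182), and the list's median was 0.04. Izumo1, the sperm partner of the egg receptor, had 75.7 to 85.2 CPM and then 90.2 to 91.2 CPM, which did not overlap, with edgeR's adjusted p = 0.311. It did not pass in the main test (0.13), with total count alone (0.12) or with TMM from the markers alone (0.05). It passed with RLE size factors, no filter, a replicate block or DESeq2 (0.15 to 0.16). At least 10 counts in every library (0.14), all 12 libraries in one fit (0.16) and leaving out the 3-day replicate 2 (0.16) also brought it past. Acrv1 (0.04), Zpbp (0.03), Spaca1 (0.01) and Spam1 (-0.08) did not pass. The difference between this list and the other spermatid lists was not tested.

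Other spermatid markers named by size were Cdrt4 (0.52), Plac8l1 (0.48), Tmem191c (0.47), carbonic anhydrase Car2 (0.47), the antizyme Oaz3 (0.44) and Ccdc27 (0.43). Oaz3, the antizyme made in spermatids, stood at 2696, 2978 and 2922 CPM and then 3704, 4429 and 3768 CPM, without overlap. Plac8l1 did not pass without the 3-day replicate 1 (0.37), the 3-day replicate 3 (0.42) or the 21-day replicate 2 (0.37). Bcas2, a splicing factor, and Syce2 were the 2 spermatid markers that fell, Bcas2 from 26.4 to 28.4 CPM to 21.3 to 23.2 CPM (-0.32; adjusted p = 0.17). The 177 that rose ranged from 0.12 to 0.73, with a median of 0.28.

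The marker table gives the stages at which each gene was listed in the mouse data, and the size of the difference varied along them. Of the 64 spermatid markers listed at RS8, the latest round spermatid stage of the table, 46 rose (71.9%) and 60 had a positive sign, with a median of 0.29. Where the latest stage was RS4 or RS6, 77 of 184 (41.8%) and 54 of 137 (39.4%) rose, with medians of 0.15 and 0.12. These classes differ in level (median 103 TPM for RS8, 176 TPM for RS4 and 111 TPM for RS6). By level alone, 85 of the 128 most abundant spermatid markers rose, 47 of the middle 128 and 45 of the lowest 129, so the count moved with abundance too, and the part of abundance in the stage difference was not tested.

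Spermatocyte markers were split by their earliest listed stage, which was given for 180. Of 68 first listed at preleptotene or before, 19 fell (27.9%, median -0.09); of 42 at leptotene or zygotene, 12 fell (28.6%, median -0.14); of 47 at pachytene, 9 fell (median -0.05); and of 23 at diplotene or metaphase, 3 fell (median -0.07). The differences between these classes were not tested.

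**Figure D3:**
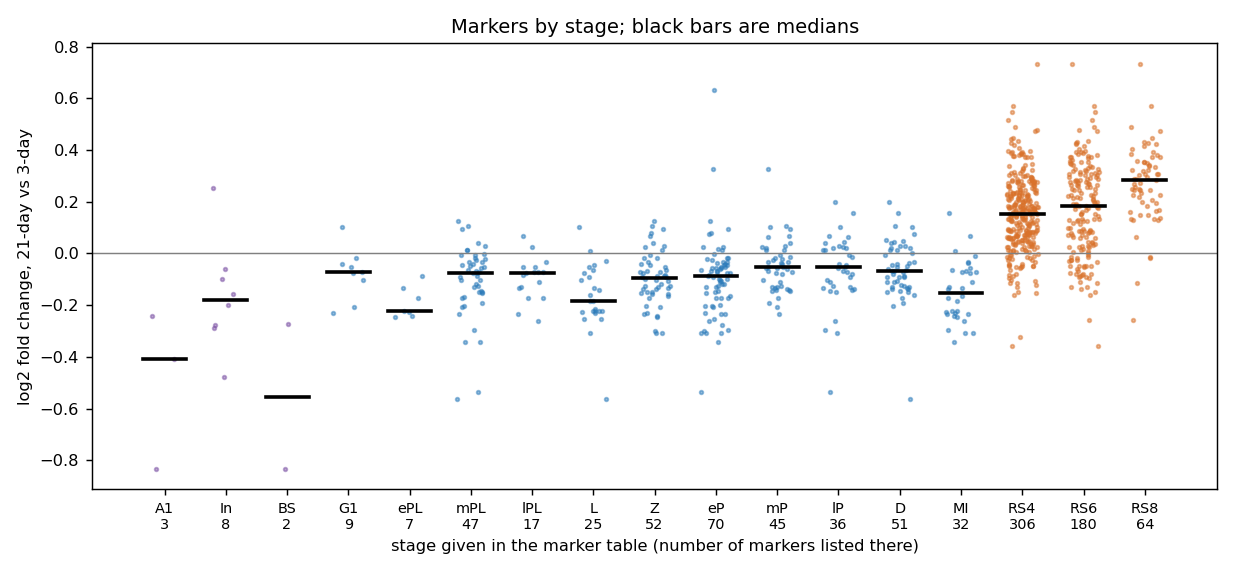
Log2 fold change, 21-day versus 3-day, of each marker at every stage at which the table lists it, from type A1 spermatogonia (A1) over leptotene (L), zygotene (Z), pachytene (eP, mP, lP) and metaphase (MI) to round spermatids (RS4 to RS8); a marker listed at several stages appears at each, and stages with 1 marker are not drawn. Black bars are medians; they lie below 0 at every stage up to MI and above 0 at RS4, RS6 and RS8, highest at RS8 (0.29).

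The comparison of the 14-day with the control libraries shares no library with that of 21 against 3 days, and was set beside it. In it 41 of 385 spermatid markers rose and 2 fell, 5 of 181 SPC markers and 4 of 12 SPG markers fell, and 0 SPC and SPG markers rose. Over all features, 7.19% rose and 4.86% fell. The share of SPC markers that fell was below that of all features. The shares of spermatid markers that rose and of SPG markers that fell were above it. Of the 178 markers higher after 21 than after 3 days, 19 were also higher after 14 days than in control (10.7% of the 178 and 46.3% of the 41), and 165 of 178 had the same sign. All 19 were spermatid markers. Of the 385 markers of that class 46.0% rose after 21 against 3 days, so the 46.3% was near the share of the class. The 177 spermatid markers that rose had a median log2 fold change of 0.11 after 14 days against control. All 385 had 0.10, so the common sign went with a shift of the whole class. Of the 53 lower ones, 8 were lower in both (15.1% of the 53 and 72.7% of the 11), and 48 had the same sign. Beside the 72.7%, 9.17% of all 578 markers fell after 21 against 3 days, and 58.3% of the SPG markers. After 14 days against control the median was -0.09 for the 44 SPC markers that fell and -0.03 for all 181. For the SPG markers it was -0.27 for the 7 that fell and -0.26 for all 12. The 4 SPG markers lower in the second comparison, Stra8, Ccne2, Tex19.1 and Hspa5, were all lower in the first; the 14-day counts of Stra8 carry the same doubt as its 21-day counts. Across the 578 markers the 2 sets of log2 fold changes had a Pearson r of 0.59, a description over genes that are not independent.

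Single markers differed between these comparisons. Ccdc27 (0.43 and 0.51), Tnp1 (0.57 and 0.32), Tnp2 (0.49 and 0.39), Got1l1 (0.45 and 0.35) and Tssk6 (0.73 and 0.26) were higher in both, and Sycp3 (-0.30 and -0.17) and Psma8 (-0.31 and -0.15) lower in both. Lipe was at 0.45 after 21 against 3 days and at -0.02 after 14 days against control, and Akap4 at 0.34 and 0.05. Glul, which encodes glutamine synthetase and was chosen after its values were seen, passed in both with opposite signs. It stood at 1078, 1078 and 1047 CPM after 3 days and 1134, 1257 and 1194 CPM after 21 days (0.13; adjusted p = 0.277), and at 1497, 1244 and 1237 CPM in control and 1145, 1088 and 1137 CPM after 14 days (-0.25; adjusted p = 0.372). The number of markers higher in both ranged from 7 without the 14-day replicate 1 to 50 without the control replicate 2, and that of markers lower in both from 3 without the 14-day replicate 1 to 14 without the control replicate 1.

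**Figure D4:**
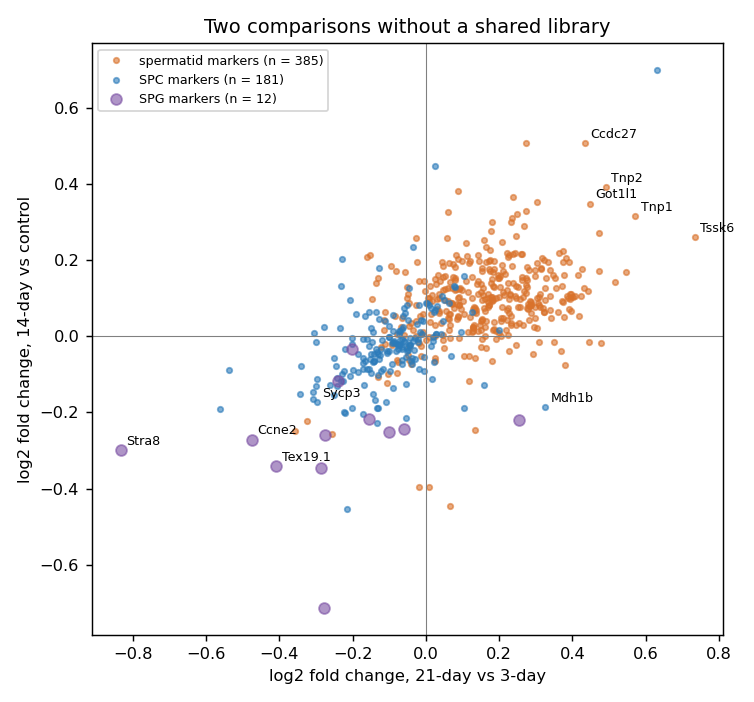
Log2 fold change of each marker after 21 against 3 days (horizontal) and after 14 days against control (vertical), 2 comparisons without a shared library; orange, blue and purple points are the 385 spermatid, 181 SPC and 12 SPG markers. Most spermatid points lie to the upper right and 11 of the 12 SPG points to the left of 0.

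Of the features outside the marker table, 20625 were tested, of which 1567 rose (7.60%) and 1712 fell (8.30%), with a median log2 fold change of -0.01. Larger differences were found here than among the markers: of the features that passed p under 0.05 with non-overlapping groups and a mean of at least 5 CPM, 19 were over 2-fold higher and 8 over 2-fold lower, where no marker was. With single libraries left out, 0 features (without the 3-day replicate 1) to 5 features (without the 21-day replicate 2) passed the adjusted threshold. The single feature past it with all 6 libraries was the transcript ENSRNOT00000074804.2 (adjusted p = 0.00144, edgeR with Benjamini-Hochberg adjustment). It had 2997, 2807 and 3483 counts in the 3-day libraries and 0 in each 21-day library, at least 951-fold lower when set against 3 counts per library (0.116 CPM). The control libraries held 2440, 2964 and 3248 counts and the 14-day libraries 0, 0 and 2612, so presence and absence also divided the 14-day group.

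The transcript ENSRNOT00000017708.5 divided the same libraries the other way. It stood at 18.8, 33.6 and 15.8 CPM after 3 days and 127, 145 and 123 CPM after 21 days (log2 fold change 2.50, SE 0.268; adjusted p = 0.0692). In the 14-day libraries it stood at 134, 133 and 17.9 CPM and in control at 19.96 to 26.4 CPM. The 14-day replicate 3 was again on the side of the control and 3-day libraries. The size of the remaining extremes rested mostly on 1 library each. ENSRNOT00000079325.1 (2.91, edgeR's adjusted p = 0.241) stood at 25.5 CPM in the 21-day replicate 1 and at 1.71 and 2.66 CPM in the others. After 3 days it stood at 1.28 to 1.31 CPM, in control at 1.35 to 1.39 CPM and after 14 days at 4.88, 4.46 and 2.18 CPM. ENSRNOT00000019209.2 (-5.00, edgeR's adjusted p = 0.214) stood at 137 CPM in the 3-day replicate 1 and at 4.80 and 3.53 CPM in the others. The transcript ENSRNOT00000019209.2 also stood at 1200 CPM in the control replicate 1, beside 1.59 and 1.72 CPM in the other controls. It had 0.887 to 5.35 CPM after 14 days and 1.05 to 1.82 CPM after 21 days. The files do not pair these transcripts with gene names.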

How the data were processed

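RNA of rat testis was depleted of ribosomal RNA and sequenced in 12 libraries; 6 enter the main comparison and 6 the 14-day versus control comparison. Per the study's methods and the submitters' processing notes, the authors used Trimmomatic for trimming, HISAT2 for alignment to Rnor_6.0 (rn6) and HTSeq for counting; versions were not given in the sources used here. The deposited tables hold an estimated count and a TPM, an abundance scaled to length and library total, per transcript, the authors' values, with lengths. Their column layout is that of a pseudoalignment tool that no source names. Groups were taken from the sample titles.

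The markers come from the study's supplementary marker table, whose genes were matched to runs of up to 15 transcripts by their counts in all 12 libraries (within 1 count): 425 had 1 transcript and 153 several, 778 transcripts in all. Estimated counts were rounded and tested with edgeR 4.0.16 (quasi-likelihood test, TMM, filterByExpr, group as the only term, each comparison on its own 6 libraries) in R 4.3.3, with Benjamini-Hochberg adjustment over all features; DESeq2 1.42.0 and limma 3.58.1 (voom) were alternatives, beside other scalings, filters, a replicate block, all 12 libraries in one fit, transcripts not summed and each library left out. TPM served for levels between genes. On data simulated for the 21-day versus 3-day comparison over 21203 features, 32 of 68 features changed by 0.3 on the log2 scale passed an unadjusted p of 0.05 with the right sign, 48 of 66 changed by 0.5 and 64 of 66 changed by 1; 944 of 20579 unchanged features passed. Pairs of replicates differed by more than counting noise in every group, so no library was counted as a repeat of another; this does not show that the samples came from separate animals.

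The markers, the 12 function lists, the tests and the naming rule were chosen with earlier results of these data known. Named were all SPG markers, Stra8, Sycp3, Piwil1, Tnp1 and Tnp2, the SPC and spermatid markers of largest change in each direction (p under 0.05, groups apart, mean CPM of at least 5), up to 3 genes of smallest p per function list, and by the same criteria the 2 highest and 2 lowest transcripts outside the table; further list members are given with their values. 1 marker that the rule names is not reported here. Lists of somatic cell markers were not used, since the files and reference tables used here do not name those transcripts. Promoter sequences are those of RefSeq (GRCr8), not the authors' build.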

Additional observations from a re-analysis of the deposited data

How the results depend on the processing

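Over 21-day versus 3-day stress, the 58 markers of the naming rule kept their direction and their side of the unadjusted 0.05 threshold in 666 of their values under alternatives other than leaving out a library, fell short of it in 19 and newly passed it in 11. With a library left out, 307 kept both, 33 fell short, 4 newly passed and 4 changed sign: Cdk2ap2 without the 3-day replicate 2 (0.00074; all such values ran from -0.213 without the 21-day replicate 1 to 0.0645), Cdk2ap2 without the 21-day replicate 2 (0.0645), Ccnd1 without the 21-day replicate 1 (-0.0835, up to 0.466 without the 21-day replicate 2) and Rac1 without the 21-day replicate 2 (0.00095, down to -0.211 without the 21-day replicate 1). All 4 had not passed before. Other list members were not run under the alternatives. The limma voom test and the Stra8 counts with the missing TPM were chosen after the data were seen. Among the 666 are values with Stra8 counts implied by TPM or with the missing TPM. Those settings changed the counts of Stra8 alone and were no test of the other markers.

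The number of features past the adjusted threshold, 1 above, was 10 with total count alone, 17 with TMM from the markers alone, 0 with at least 10 counts in every library, 30 with all 12 libraries in one fit, 0 with a replicate block, 777 with DESeq2 and 7 with limma voom. With TMM from the markers alone 968 features were higher and 3631 lower, and 0 SPC markers higher, 120 lower, 23 spermatid markers lower and 24 markers lower in both comparisons. SPC markers that fell numbered 26 with RLE size factors, 69 with total count alone, 29 with no filter and 22 with the replicate block. SPC markers that rose numbered 4 with the replicate block and 2 with RLE size factors, no filter, at least 10 counts, all 12 libraries or DESeq2. Spermatid markers that fell numbered 1 with RLE size factors, TMM from features outside the marker table, no filter, at least 10 counts, the replicate block, DESeq2 or limma voom. Markers higher in both comparisons numbered 33 with total count alone and with all 12 libraries in one fit, and markers lower in both 4 with the replicate block. In each of these alternatives more spermatid markers rose than fell and more SPC and SPG markers fell than rose; the cause of the shifts in number was not tested.

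Leaving out each library in turn gave 0 to 5 features past the adjusted threshold, 1187 to 1987 higher and 1067 to 1935 lower features, 0 to 0 SPG markers higher and 5 to 7 lower, 0 to 3 SPC markers higher and 8 to 75 lower, 123 to 217 spermatid markers higher and 1 to 6 lower, 7 to 50 markers higher and 3 to 14 lower in both comparisons. An arm left with 2 libraries was assumed to vary like the others. Same-numbered libraries of the 2 groups had correlations of deviations of 0.16, -0.01 and 0.157, and differently numbered ones of -0.205 to 0.077. The values 0.16 and 0.157 were the highest of all, and whether the numbers pair the samples cannot be told from so few values. The replicate block gave 219 spermatid markers higher, 22 SPC and 6 SPG markers lower. With 3 libraries a group, changes of 0.3 on the log2 scale passed the unadjusted threshold in fewer than 1 in 2 simulated features with higher counts. So a marker that did not pass is not shown to be unchanged.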

Other observations

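Of the 140 markers with several tested transcripts, all transcripts had the same sign in 89. In 8 markers a transcript passed the unadjusted threshold of 0.05 against the sign of the sum, and 1 of these, the chaperonin gene Tcp1, had itself passed. The SPC marker Sccpdh had the highest log2 fold change of its class, 0.63 (edgeR, adjusted p = 0.647), and values that overlapped widely: 45.5, 14.7 and 7.96 CPM after 3 days and 54.7, 23.6 and 29.6 CPM after 21 days.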
